A study of Mus musculus with 16 samples.

Results

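Spp1 and Gpnmb, a pair of genes that mark macrophages in injured tissue, were followed across 16 CUT&Tag peak lists from muscle macrophages. Every peak was taken that overlapped a fixed window around either gene on the GRCm39 assembly, chr5:104565000-104605000 (40 kb) for Spp1 and chr6:49000000-49050000 (50 kb) for Gpnmb. The windows held 84 of the 320508 peaks in all lists, 39 at Spp1 and 45 at Gpnmb. Of these, 33 were H3K18la peaks, 12 H3K4me3, 33 H3K27ac and 6 H3K27me3.

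The cells were CD45+CD11b+F4/80+CD64+ macrophages sorted from the calf muscle of male C57BL6J wild type mice aged 8 to 12 weeks. All mice had hind limb ischemia, made by removing the femoral artery, and cells were taken at 2 or 4 days post injury (dpi). The CD45 stain of the digested muscle, as the methods define it, also covers cells still in the circulation. No uninjured muscle was analysed here, and the groups were set by time and by the histone mark. Each mark had 2 libraries at each time point, described in the methods as biological replicates. The labels did not say how many mice each library held, so the spread below is that between libraries. All buffers contained 5 mM sodium butyrate, an inhibitor of histone deacetylases.

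CUT&Tag cuts and tags DNA next to an antibody bound to a histone mark, and a peak is a stretch where the sequenced coverage is high. H3K4me3 is found at active promoters and H3K27ac at active promoters and enhancers. H3K27me3 is laid down by the Polycomb system at repressed genes. H3K18la is lactylation of lysine 18 of histone H3, a mark that draws on lactate. Spp1 encodes osteopontin, a secreted phosphoprotein that binds integrins and CD44 and acts in cell adhesion, migration and wound repair. Gpnmb encodes a transmembrane glycoprotein of lysosomes and the cell surface. In macrophages both genes are known from lipid-laden, phagocytic and wound-associated states, and Gpnmb is a known target of the MITF and TFE transcription factors.

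Since both windows held an H3K4me3 region, the promoter sequences of the genes are shown for the 250 bases before the annotated start. They come from RefSeq on GRCm38.p6, an older assembly than that of the peaks, and were not placed on the peak coordinates. The Spp1 stretch is chr5:104434861-104435110 and the Gpnmb stretch chr6:49036268-49036517, both on the plus strand. RefSeq (gene IDs 20750 and 93695) gives 2 starts for Spp1, of which the first is shown. Capitals mark matches to short motifs.
Spp1: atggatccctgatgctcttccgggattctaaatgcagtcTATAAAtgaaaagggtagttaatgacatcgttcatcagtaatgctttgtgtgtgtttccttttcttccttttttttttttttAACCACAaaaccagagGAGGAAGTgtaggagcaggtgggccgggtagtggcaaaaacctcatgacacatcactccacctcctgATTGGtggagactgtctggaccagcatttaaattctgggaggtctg
Gpnmb: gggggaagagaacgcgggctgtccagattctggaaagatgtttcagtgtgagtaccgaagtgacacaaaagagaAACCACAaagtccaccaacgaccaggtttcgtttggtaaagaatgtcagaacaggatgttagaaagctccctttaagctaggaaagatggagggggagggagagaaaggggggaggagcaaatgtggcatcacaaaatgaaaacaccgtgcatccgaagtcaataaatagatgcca
The motifs searched on both strands were AP-1 (TGANTCA), PU.1 of the ETS family (GAGGAAGT), RUNX (AACCACA), the E-boxes CATGTG and CACGTG of the MITF and TFE family, the CCAAT box (CCAAT), the TATA box (TATAAA) and the NF-kB consensus. Both promoters held the RUNX letters, which occur in 4.40% of the 32851 promoter stretches of the same length. They began 129 bases before the start of Spp1 and 176 bases before that of Gpnmb. The Spp1 promoter also held the PU.1 letters, present in 2.44% of all promoters, overlapping no other match. It further held the TATA box letters, 211 to 206 bases before the start, which occur in 12.4% of promoters. The CCAAT box letters lay on its minus strand, 46 to 42 bases before the start, and occur in 33.8%. No AP-1, E-box or NF-kB letters lay in either stretch. These shares were 6.75% for AP-1, 12.3% for CATGTG, 6.02% for CACGTG and 5.00% for NF-kB. The motifs were chosen after the sequences had been seen, and a match is a description of the letters only. The stretches were 43.6% and 47.2% G and C, against a median of 52.4% over all promoters.

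Values were read within each library, since the lists were not scaled to each other. The called length is the number of bases inside a window that lie in a peak. The percentile ranks a peak by its total signal, the coverage summed over the peak, among all peaks of the same list. The lists of H3K18la held 15190 to 27578 peaks and those of H3K4me3 16446 to 18413. The H3K27ac lists held 24976 to 35971 peaks and covered 37.8 to 204.6 Mb. The longest was 4 dpi replicate 1, whose median peak width was 4250 bp. The other H3K27ac libraries had medians of 1718.5, 1218 and 1594 bp. That library, and the H3K27me3 lists of 12060 to 14836 peaks over 52.1 to 80.9 Mb, enter the called lengths below as deposited. The read depth of the libraries is unknown. The H3K27ac libraries also carried other library ID prefixes than the rest, so a difference between H3K27ac and another mark cannot be told apart from a difference between those library sets. Within H3K27ac, 4 dpi replicate 1 had a prefix of its own and the other 3 libraries shared another, so its comparisons of 2 with 4 dpi also mix library sets.

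The Spp1 window carried 2 sites with H3K18la in every library and a broad H3K27me3 domain behind them. Its central site was the region called for H3K4me3 in all 4 libraries, chr5:104581684-104586434, which served here as the mark of an active promoter. The H3K18la region over it, chr5:104581532-104585264, and the H3K27ac region, chr5:104581543-104586458, were likewise called in all 4 libraries of their mark. The highest H3K18la coverage lay between positions 104582921 and 104583043, a spread of 122 bp over 4 libraries. The H3K4me3 maxima lay between 104582911 and 104583016, and the H3K27ac maxima between 104582805 and 104583062. All 12 libraries of the 3 active marks thus had their maximum within 257 bp.

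The second Spp1 site lay 6.08 kb before the H3K4me3 region, at chr5:104573302-104575604. H3K18la was called there in all 4 libraries, over 1.78 and 1.23 kb at 2 dpi and 2.19 and 2.01 kb at 4 dpi. H3K27ac was called there in 4 of 4 libraries and H3K4me3 in 3 of 4, the exception being 4 dpi replicate 2. The H3K18la maxima fell within 147 bp of each other and the H3K4me3 maxima within 102 bp. H3K4me3 was weak at this site, with peaks at percentiles 19.8 and 31.9 at 2 dpi and 10.5 at 4 dpi replicate 1. The H3K18la peaks there stood at percentiles 82.3, 66.3, 82.2 and 72.4, and in 3 of the 4 libraries they were the highest H3K18la peak of the window by total signal. Of the 1.68 kb of the window called for H3K18la in all 4 libraries, 98.2% was also called for H3K27ac in all 4 libraries, and 45.8% for H3K4me3. In the other direction, 71.8% of the shared H3K27ac bases and 23.4% of the shared H3K4me3 bases lay in the shared H3K18la bases. Counting bases called in any library, 89.7% of the H3K18la bases were also called for H3K27ac and 54.7% for H3K4me3. By that count 50.7% of the H3K27ac bases and 82.3% of the H3K4me3 bases were also H3K18la bases.

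Another H3K18la site at Spp1, behind the promoter, chr5:104593002-104594670, was called in both libraries at 2 dpi and in neither at 4 dpi. It covered 1.26 and 1.67 kb, at percentiles 57.1 and 49.2. It lay 6.57 kb behind the H3K4me3 region, at the front edge of the H3K27me3 domain, chr5:104593313-104607414. H3K27me3 peaks overlapped it in 1 library at 2 dpi and in both at 4 dpi, and H3K27ac peaks in 1 library at each time point. The H3K27me3 maxima of those 3 libraries fell between positions 104594258 and 104594278. Over its whole extent, which runs past the window, the domain was called over 8.07 and 9.70 kb at 2 dpi and 12.4 and 11.3 kb at 4 dpi. It was 1 peak in 4 dpi replicate 1 and was broken into 2 peaks in each of the other libraries. In the RefSeq gene order the next gene behind Spp1 is Pkd2, whose protein is a polycystin ion channel, and the gene before it is Mepe, of the same family of bone matrix proteins. On GRCm38.p6 the Spp1 gene is 5.94 kb long and Pkd2 lies 12.9 kb behind its end. Whether the domain belongs to Spp1 or to Pkd2 was not tested, and no position of Pkd2 or Mepe on GRCm39 was used here.

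The remaining Spp1 peaks were seen in 1 or 2 libraries. H3K18la had a peak at chr5:104569870-104570795 and 1 at chr5:104578121-104579497 in 2 dpi replicate 1, and 1 at chr5:104580514-104581207 in 2 dpi replicate 2. H3K27ac peaks overlapped the first and second of these in 4 dpi replicate 1. An H3K27ac region at chr5:104588971-104592888 was called in both libraries at 4 dpi, over 3.92 and 0.987 kb, and in neither at 2 dpi.

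**Figure D1:**
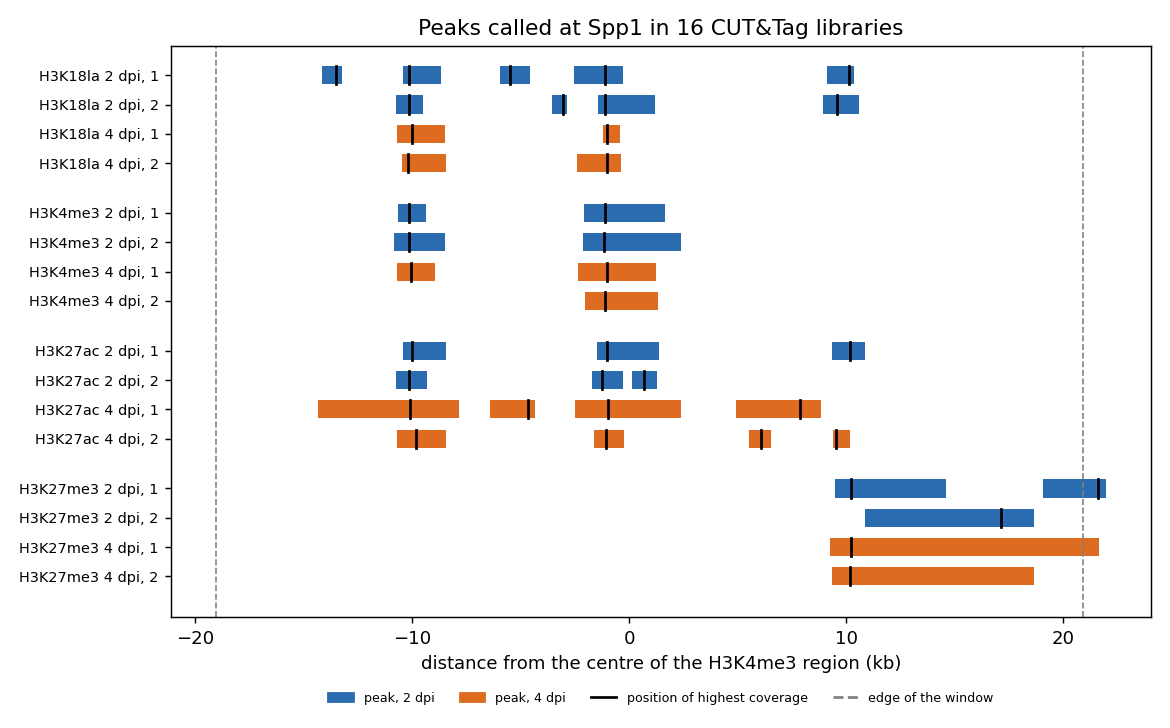
Peaks called in the Spp1 window, 1 row for each of the 16 libraries (mark, time point, replicate), with distance in kb from the centre of the H3K4me3 region on the x axis. Bars are peaks, black ticks the position of highest coverage and dashed lines the window edges. The H3K18la, H3K4me3 and H3K27ac rows share the central site. Among these rows the site about 10 kb before it lacks a peak only in H3K4me3 4 dpi replicate 2. The H3K27me3 rows have no peak at either site, and their bars begin about 10 kb behind the centre.

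At Gpnmb, H3K18la lay over a row of sites that H3K4me3 did not share. Of the 5 H3K18la regions that touched the window, all 5 were called in all 4 libraries. H3K4me3 was called over the last of them alone, chr6:49012189-49017544, in all 4 libraries, and this region again served as the mark of an active promoter. It measured 5.36 and 4.73 kb at 2 dpi and 5.20 and 5.09 kb at 4 dpi, and was wider than 92.7% to 97.4% of the H3K4me3 peaks in its list. The H3K18la region over it, chr6:49012058-49017937, was called over 4.71, 3.98, 3.66 and 5.88 kb. Its main peaks stood at percentiles 94.2, 89.1, 93.9 and 95.2 and by total signal were the highest H3K18la peaks of the window in every library. By maximum signal the narrower region at chr6:49004454-49006043 ranked higher in 2 libraries. The percentiles were 83.49 against 35.84 in 2 dpi replicate 2 and 91.65 against 83.14 in 4 dpi replicate 1.

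The other H3K18la regions lay before the H3K4me3 region and within 16 kb of its centre. The nearest, chr6:49007142-49011496, ended 0.692 kb before it and was called over 3.41, 3.08, 2.66 and 3.37 kb. In 2 dpi replicate 2 and 4 dpi replicate 1 it was split into 2 peaks. The next, chr6:49004454-49006043, was narrow, with 0.826, 1.42, 1.17 and 1.45 kb called, and its H3K18la maxima fell within 49 bp of each other. The one before that, chr6:49002799-49004223, was called over 1.10 to 1.40 kb, with percentiles from 28.9 to 50.8. The last, chr6:48997314-49000593, crossed the edge of the window and had its maximum outside it, and in 2 of the 4 libraries its peak lay wholly outside. H3K27ac was called over each of these upstream regions in both libraries at 4 dpi, and in 1 or both libraries at 2 dpi.

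H3K27ac at Gpnmb formed a broad region, chr6:49002265-49017488, that spanned 4 of the 5 H3K18la regions. It was called over 11.6 and 3.91 kb at 2 dpi and over 15.2 and 13.5 kb at 4 dpi. At 2 dpi it was broken into 6 peaks in replicate 1 and 2 peaks in replicate 2, with the strongest at percentiles 90.0 and 86.1. At 4 dpi replicate 1 it was 1 peak at percentile 98.1, wider than 96.0% of the list. At 4 dpi replicate 2 its main peak was 11.1 kb long, at percentile 99.1 and wider than 99.65% of the list. The H3K27ac maxima over the promoter region fell within 150 bp of each other in all 4 libraries. Of the H3K18la bases called in any library, 96.7% were also called for H3K27ac in some library and 38.7% for H3K4me3. In the other direction, 63.7% of the H3K27ac bases and 86.9% of the H3K4me3 bases were also H3K18la bases. By the first measure used at Spp1, bases called in all 4 libraries of a mark, the 2 shares were alike. Of the 6.595 kb called for H3K18la in all 4 libraries, 51.7% was so called for H3K27ac and 52.4% for H3K4me3. In the other direction these shares were 91.8% and 73.1%.

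Behind the promoter no H3K18la peak was called in any library. H3K27ac was called there at chr6:49026792-49029883 in both libraries at 4 dpi, over 2.87 and 1.92 kb, and in neither at 2 dpi. At chr6:49040485-49041659 it was called in 4 dpi replicate 2 alone. H3K27ac and H3K4me3 regions at the far edge of the window, from chr6:49049051 and chr6:49049196, had their maximum outside it, and the next gene in the RefSeq order on that side is Malsu1. H3K27me3 had a single peak, chr6:49046008-49048274, in 2 dpi replicate 1, at percentile 12.3. The other 3 H3K27me3 libraries had none in the 50 kb.

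**Figure D2:**
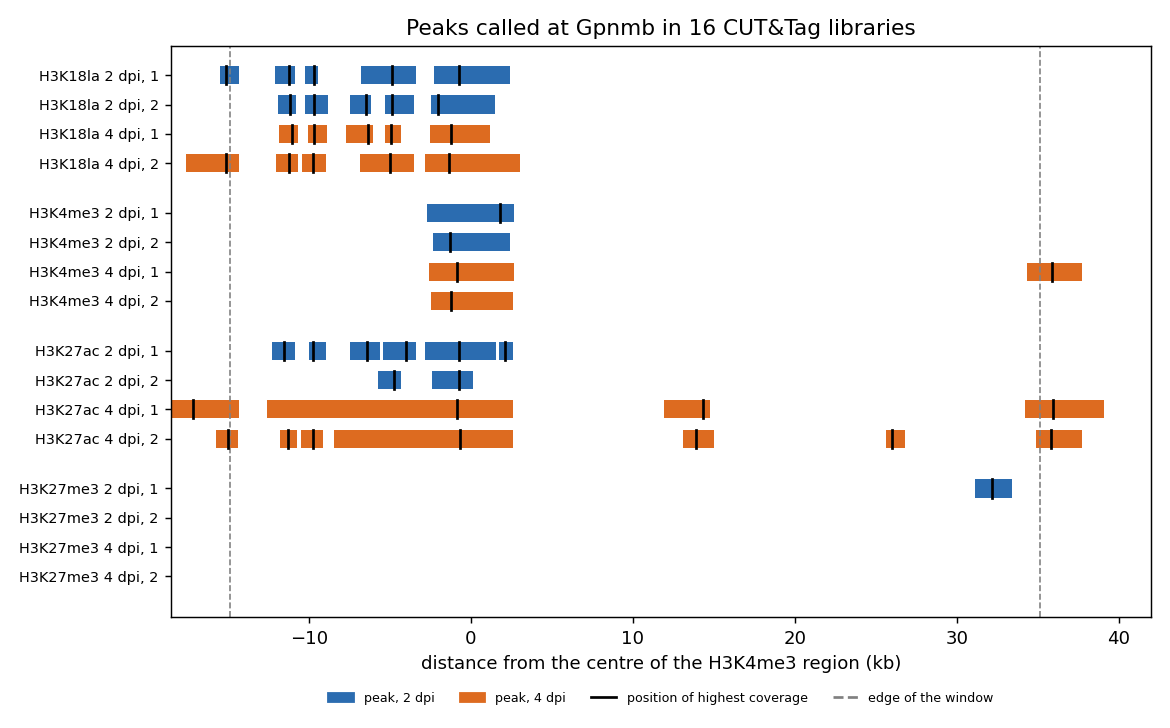
Peaks called in the Gpnmb window, with rows, bars, ticks and dashed lines for the 16 libraries as at Spp1 and distance in kb from the centre of the H3K4me3 region on the x axis. H3K18la peaks lie at and before the centre in all 4 rows, H3K4me3 holds 1 bar there, the H3K27ac bars merge at 4 dpi, and the H3K27me3 rows hold a single bar at the far right.

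The lengths called at Gpnmb put H3K18la well above H3K4me3 and H3K27me3, whereas at Spp1 the marks overlapped. At Gpnmb, H3K18la was called over 10.7 and 9.58 kb at 2 dpi and 8.66 and 12.7 kb at 4 dpi, a mean of 10.4 ± 1.74 kb (SD, n = 4). H3K4me3 was called over 5.36, 4.73, 6.001 and 5.09 kb, a mean of 5.29 ± 0.536 kb (SD, n = 4). H3K27me3 was called over 2.27 kb in 1 library and over 0 in the others. The H3K18la values overlapped neither. The difference was 5.12 kb from H3K4me3 and 9.85 kb from H3K27me3, each with p = 0.0286 by a two-sided exact permutation test, the smallest that 4 against 4 libraries can give. Adjusted over the 10 contrasts of marks made at the 2 windows, both were p = 0.143 by the exact permutation test and missed the threshold of 0.05. Of all 50 kb tiles of the genome with a peak of either mark, 13.0% had more H3K18la than H3K4me3 in every library, and 24.7% more H3K18la than H3K27me3.

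H3K27ac at Gpnmb was called over 11.6, 3.91, 19.6 and 17.3 kb, a mean of 13.1 ± 6.99 kb (SD, n = 4). It overlapped H3K18la, and the difference of H3K18la from it was -2.68 kb (exact permutation p = 0.457, adjusted p = 0.571). With all lists cut to the same number of peaks the difference was 0.876 kb, so its direction was not stable. The H3K27ac values did not overlap between 2 and 4 dpi, but 2 against 2 libraries cannot go below p = 0.333 in the exact test. The share of all 50 kb tiles that separate in this way was not counted. Set against the 50 kb tiles with a peak in the same list, the time points did overlap. The window had more H3K27ac called than 91.8% and 73.25% of such tiles at 2 dpi, and than 82.84% and 97.15% at 4 dpi.

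At Spp1, H3K18la was called over 7.59 and 6.22 kb at 2 dpi and 2.96 and 4.05 kb at 4 dpi, a mean of 5.20 ± 2.09 kb (SD, n = 4). The time points did not overlap, with means of 6.90 and 3.50 kb, but here too 2 against 2 libraries cannot go below p = 0.333 in the exact test. The share of all tiles that separate in this way was not counted. H3K4me3 was called over 5.01, 6.89, 5.37 and 3.36 kb, and the difference of H3K18la from it was 0.047 kb (exact permutation p = 0.971). H3K27ac was called over 6.33, 4.05, 17.4 and 5.46 kb, and the difference was -3.11 kb (exact permutation p = 0.457, adjusted p = 0.571), or -0.0756 kb without H3K27ac 4 dpi replicate 1. H3K27me3 was called over 7.03 and 7.79 kb at 2 dpi and 11.7 and 9.29 kb at 4 dpi, again without overlap of the time points and again with no such share counted. It was called over more of the Spp1 window than H3K18la by 3.75 kb (exact permutation p = 0.0571, adjusted p = 0.19), and H3K18la 2 dpi replicate 1 lay inside its range. All of this H3K27me3 lay in the domain behind the promoter. For each list, the 40 kb tiles of the genome that held a peak give a scale. The Spp1 window had more H3K18la called than 88.7% and 88.0% of them at 2 dpi, and than 67.5% and 73.1% at 4 dpi. For H3K27me3 the shares were 71.56% and 68.25% at 2 dpi and 78.52% and 69.83% at 4 dpi, so on this scale its time points overlapped. The H3K27me3 lists as a whole covered 52.1 and 61.0 Mb at 2 dpi and 79.75 and 80.9 Mb at 4 dpi. The 17.4 kb of H3K27ac in 4 dpi replicate 1, the library with the longest called length, exceeded 84.0% of such tiles in its own list.

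**Figure D3:**
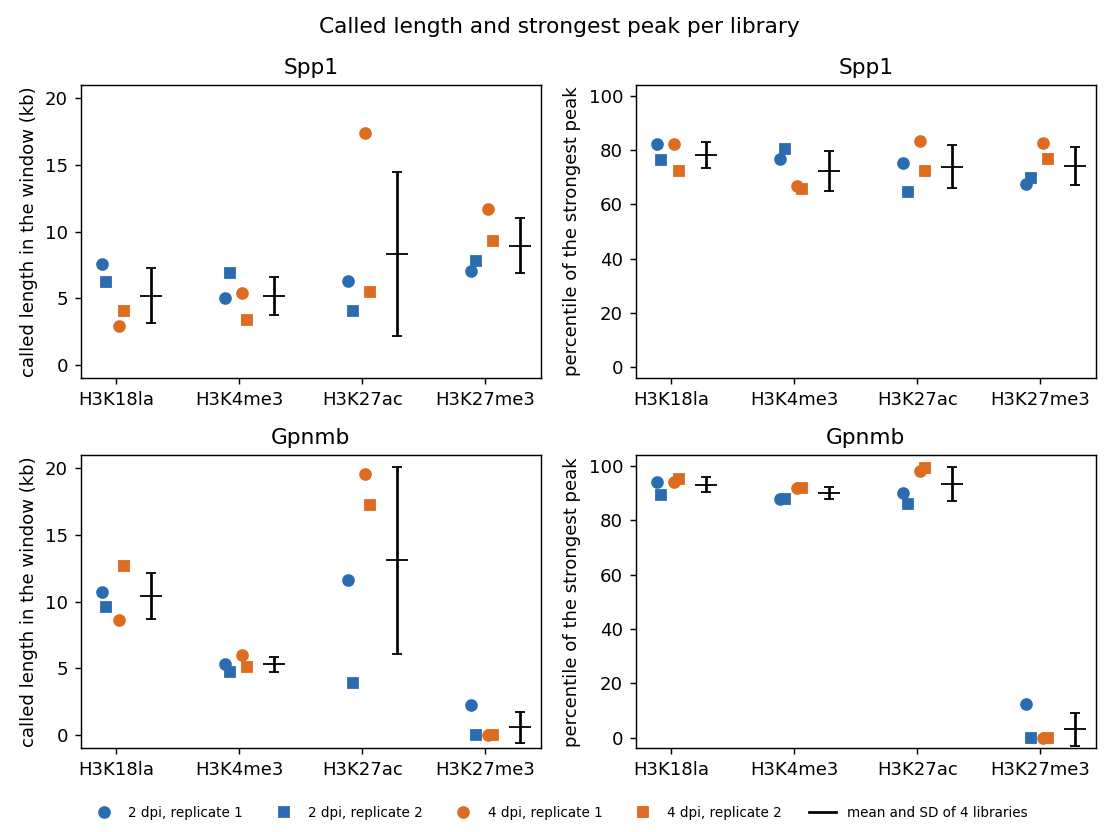
Called length in the window in kb (left) and percentile of the strongest peak by total signal (right) for Spp1 (top) and Gpnmb (bottom), with 1 symbol per library and, beside it, the mean and SD over each mark (n = 4). H3K18la at Gpnmb sits between 8.66 and 12.7 kb, above all H3K4me3 symbols; lists with no peak are drawn at percentile 0.

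By total signal, the strongest peak ranked higher at Gpnmb than at Spp1 for the 3 active marks. The strongest H3K18la peak at Gpnmb stood at percentile 93.1 ± 2.71 (SD, n = 4), the strongest H3K4me3 peak at 89.9 ± 2.25 (SD, n = 4) and the strongest H3K27ac peak at 93.3 ± 6.30 (SD, n = 4). At Spp1 these were 78.3 ± 4.82, 72.4 ± 7.26 and 73.9 ± 7.83 (SD, n = 4 each). Within each of the 12 libraries of these marks the percentile at Gpnmb was the higher, a difference that was not tested. By maximum signal it was the higher in 8 of the 12, namely 4 of 4 for H3K18la but 2 of 4 for H3K4me3 and 2 of 4 for H3K27ac. The H3K18la percentile did not differ past the threshold from that of H3K4me3 or H3K27ac at either gene. The closest was H3K4me3 at Gpnmb, with a difference of 3.23 (exact permutation p = 0.143, adjusted p = 0.357). The size of these differences depended on the processing. By maximum signal the difference from H3K4me3 at Gpnmb was 27.1 (exact permutation adjusted p = 0.0952). With all lists cut to the same number of peaks, the difference from H3K27ac at Spp1 went from 4.47 to 30.8 (exact permutation adjusted p = 0.0714).

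Read within each library, the called share separated the windows of the genes in opposite directions for H3K18la and H3K27me3. H3K18la covered 7.82 ± 5.95 percentage points more of the Gpnmb than of the Spp1 window (SD, n = 4), higher in 4 of 4 libraries. H3K27me3 covered 21.2 points less, a difference of -21.2 ± 6.79 (SD, n = 4), higher in 0 of 4. At Spp1, H3K27me3 lay only in the domain behind the promoter. Both differences had p = 0.125 by an exact sign-flip permutation test, the smallest that 4 libraries can give, and adjusted p = 0.25 over the 4 marks. H3K4me3 differed by -2.30 ± 3.97 points (exact sign-flip p = 0.375, adjusted p = 0.5) and was higher at Gpnmb in 1 of 4 libraries. H3K27ac differed by 5.41 ± 11.5 points (exact sign-flip p = 0.5, adjusted p = 0.5) and was higher in 2 of 4.

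The time points were then compared region by region, to ask how the marks moved between 2 and 4 dpi. For each mark, overlapping peaks from its 4 libraries were joined into regions, and the total signal of each region called in all 4 libraries was ranked within the library. The ranks were turned into normal scores and fitted with limma across all regions of the mark. A shift is the score at 4 dpi minus that at 2 dpi. The percentiles given with the shifts rank a region among these regions of its mark in a library. They are not the percentiles among all peaks of the list used above. Of the 27 regions in the windows, 15 were called in all 4 libraries of their mark and were tested.

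The H3K4me3 region of Spp1 was the 1 of these 15 that passed the threshold. Its percentile among the tested regions was 68.4 and 74.1 at 2 dpi and 53.8 and 56.7 at 4 dpi. It fell by 0.43 in normal score (SE 0.13, limma adjusted p = 0.0457). Of all H3K4me3 regions tested, 15.9% were called in either direction and 8.07% fell, against 1 of the 3 H3K4me3 regions in the windows. The call was a close one. The highest coverage in place of total signal gave -0.18 (limma adjusted p = 0.735), and total signal per called base gave -0.04 (limma adjusted p = 0.972). On leaving out 2 dpi replicate 2, 4 dpi replicate 1 or 4 dpi replicate 2 the shift was -0.34, -0.39 and -0.45, near its full value, but the call was lost (limma adjusted p of 0.177, 0.171 and 0.137).

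The H3K4me3 region of Gpnmb had percentiles of 83.3 and 83.9 at 2 dpi and 88.6 and 89.1 at 4 dpi. Its shift was 0.24 (SE 0.11, limma adjusted p = 0.135) and did not pass. The broad H3K27ac region of Gpnmb had percentiles of 93.3 and 79.8 at 2 dpi and 94.9 and 97.1 at 4 dpi, and a shift of 0.60 (SE 0.22, limma adjusted p = 0.253). Its size rested on single libraries. Without 2 dpi replicate 1 it was 0.92 and passed (limma adjusted p = 0.0408), without 2 dpi replicate 2 it was 0.25 (limma adjusted p = 0.979), and without 4 dpi replicate 1 it was 0.72 (limma adjusted p = 0.453). The H3K27ac region over the Spp1 promoter had percentiles of 44.6 and 54.5 at 2 dpi and 27.2 and 19.5 at 4 dpi, with a shift of -0.72 (SE 0.40, limma adjusted p = 0.439). Across all H3K27ac regions 0.185% were called.

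No H3K18la region of either gene passed, and 0.118% of all H3K18la regions did. The H3K18la region over the Gpnmb promoter had percentiles of 81.8 and 80.5 at 2 dpi and 88.4 and 90.0 at 4 dpi. Its shift was 0.36 (SE 0.18, limma adjusted p = 0.374). The site at chr6:49004454-49006043 had percentiles of 16.3 and 48.4 at 2 dpi and 75.4 and 39.6 at 4 dpi, with a shift of 0.72 (SE 0.44, limma adjusted p = 0.46) that ran from 0.25 without 2 dpi replicate 1 to 1.15 without 4 dpi replicate 2. At the Spp1 promoter the H3K18la percentiles were 28.5, 61.5, 13.6 and 46.7, a wide scatter within each time point, and the shift was -0.45 (SE 0.47, limma adjusted p = 0.684). At the site before it they were 50.2, 48.4, 69.4 and 49.8, with a shift of 0.27 (SE 0.32, limma adjusted p = 0.728) that ran from 0.03 without 4 dpi replicate 1 to 0.51 without 4 dpi replicate 2. Of the 7 H3K18la regions tested 5 had a positive shift. None of the 7 was under an unadjusted p of 0.05 in limma, as 1377 of all 9325 H3K18la regions were. The H3K27me3 domain behind Spp1 had percentiles of 59.3, 59.4, 65.4 and 63.2 and a shift of 0.13 (SE 0.13, limma adjusted p = 0.666), where 0.945% of all H3K27me3 regions were called.

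**Figure D4:**
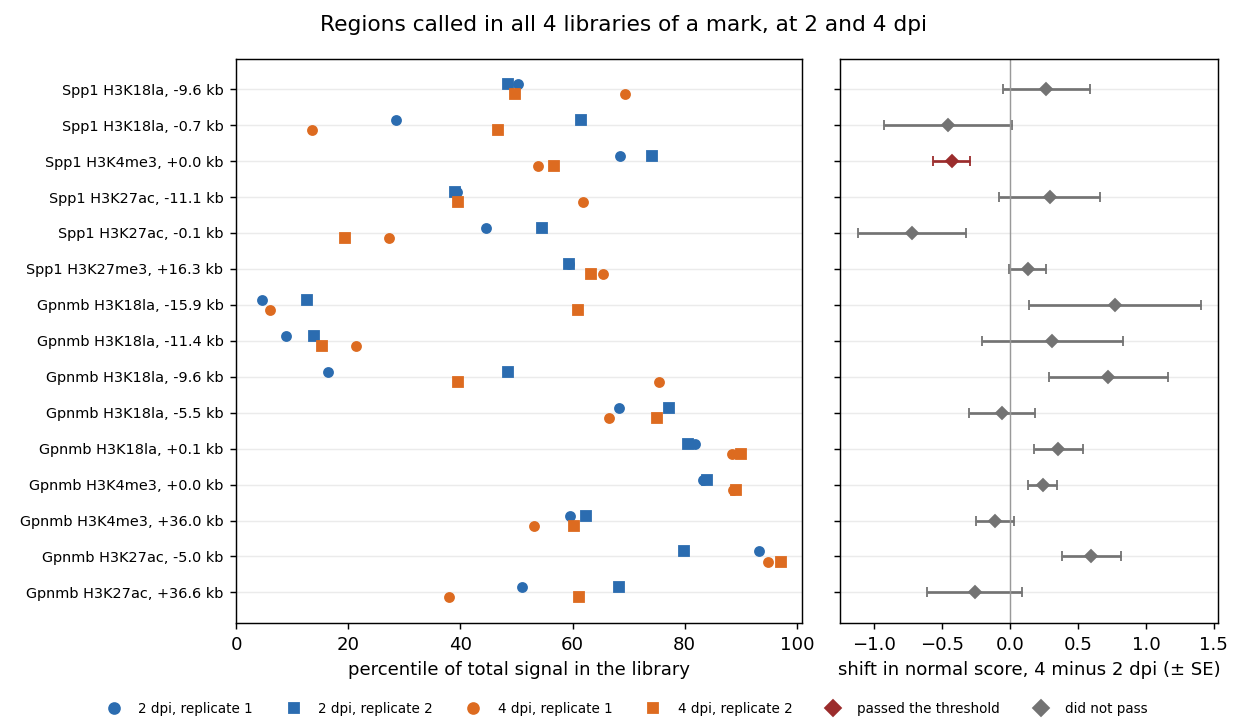
The 15 regions tested between time points, named by gene, mark and distance of their centre from the H3K4me3 centre. Left, the percentile of total signal in each library among the tested regions of the mark. Right, the shift in normal score (4 minus 2 dpi) with its SE from limma. The H3K4me3 region of Spp1, in red, is the one shift past the threshold, at -0.43.

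Regions that appeared or disappeared were counted apart, as regions present in 2 of 2 libraries at one time and 0 of 2 at the other. Of the 11 H3K18la regions in the windows 1 was lost at 4 dpi, the site of Spp1 at the front of the H3K27me3 domain, and 0 were gained. Over all H3K18la regions 4.37% were lost and 1.53% gained. With the 4 H3K18la lists cut to equal length this site was still lost. Of the 10 H3K27ac regions 2 were gained, 1 behind each promoter, and 0 were lost, where 5.83% of all H3K27ac regions were gained and 0.704% lost. With the H3K27ac lists cut to equal length neither gain remained, each being called in 1 of the 2 libraries at 4 dpi. Of the 4 H3K4me3 regions none was gained or lost, against 5.28% and 1.29% of all. With the H3K4me3 lists cut to equal length the weak H3K4me3 site before Spp1 was called in both libraries at 2 dpi and in neither at 4 dpi. Of the 2 H3K27me3 regions none was gained or lost, against 10.4% and 0.877%. With 1 or 2 regions in each count, these do not set the windows apart from the rest of the genome.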

How the data were processed

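Macrophages were profiled by CUT&Tag for 4 marks at 2 and 4 dpi, in 16 libraries. According to the submitters' processing notes, the authors used Trim Galore 0.6.6, Bowtie2 2.4.4, SAMtools 1.13, bedtools 2.30 and SEACR 1.3, and the methods give a SEACR threshold of 0.01 in stringent mode on each library alone. The deposited values are the total and the maximum signal (coverage) of each peak, without normalization between libraries, and the sequencing depth is unknown. The labels name GRCm39 and the methods mm10. Since 255 peaks on 5 chromosomes lie beyond the chromosome ends of GRCm38, GRCm39 was taken. Annotation of that build was not used here, so exons, start sites, gene lists, cell type markers and genes of like pattern were not analysed here. RefSeq GRCm38.p6 gave promoter sequences and gene order only.

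Peaks on 21 chromosomes were ranked within each list by total signal. Peaks of a mark that overlapped by at least 1 bp were merged into regions. Normal scores of regions called in all 4 libraries were fitted with limma 3.58.1 (R 4.3.3; trended, robust variance) with Benjamini-Hochberg adjustment over all regions of the mark. Called lengths and percentiles were compared by exact permutation with scipy 1.17.1 in Python 3.11.15. The scripts were tested on simulated data. The members, tests and alternatives were chosen with earlier results of these data known. All peaks in the windows are described. Groups and replicate numbers follow the labels, also for H3K27me3 at 4 dpi, where the deposited files number the replicates the other way round. Replicate numbers did not pair libraries. Alternatives were another signal, filter, merging or list length, scaling, window edges, a replicate block and leaving out each library.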

Additional observations from a re-analysis of the deposited data

Results flagged for a closer look

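In each group of 4 libraries the most distant value was compared with the range of the group, and chance marks about 1 in 20 groups. The H3K27ac length called at Spp1 was 17.4 kb in 4 dpi replicate 1, and its gap to the next library was 0.83 of the whole range. The H3K27ac list of that library covered 204.6 Mb, against 37.8 to 65.3 Mb in the other 3, and the part of this in the value at Spp1 was not tested. H3K27me3 at Gpnmb was called in 2 dpi replicate 1 alone, over 2.27 kb and at percentile 12.3, while the other 3 libraries had no peak in the window.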

How the results depend on the processing

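Depth could not be weighed, since the lists hold no read counts, and a region with no peak is only one below the peak threshold in that library. Of the comparisons of marks, genes and counts of shifted regions, 162 values under the alternatives kept their direction and their side of the threshold, 16 reversed and 8 counts moved. Only the direction is informative for the comparisons of genes, since the smallest value of their exact sign-flip permutation test lies above the threshold. For those of marks, a contrast at the smallest value of the exact permutation test passes after adjustment only if other contrasts are about as low. Keeping the side of the threshold is therefore no sign of stability in these comparisons. The separation of H3K18la from H3K4me3 and H3K27me3 at Gpnmb kept its direction under every alternative run. It passed the threshold after adjustment under none, which for the same reason decides nothing. The cause of the changes below was not tested.

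With all lists cut to the same number of peaks, H3K18la minus H3K27ac became 0.335 kb at Spp1 and 0.876 kb at Gpnmb. For the percentile it became 30.8 at Spp1 and 4.91 at Gpnmb. Divided by the called length of the list, it became 69.1 bp per called Mb at Spp1 and 174 at Gpnmb, and H3K18la minus H3K27me3 at Spp1 became 31.5. With maximum signal the percentile difference from H3K27ac was -7.35 at Spp1 and 5.79 at Gpnmb, and that from H3K4me3 was 6.23 and 27.1. Among peaks above percentile 50 of each list H3K4me3 covered 1.07 points more of Gpnmb than of Spp1. On leaving out each library, H3K18la minus H3K4me3 at Spp1 ran from -0.748 to 0.796 kb, and the percentile difference from H3K27ac at Gpnmb from -2.63 to 1.70. The number of H3K4me3 regions called ran from 0 to 1, and that of H3K27ac from 0 to 1 (1 without 2 dpi replicate 1).

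The H3K4me3 count was 0 with maximum signal, with signal per called base, with regions in at least 2 libraries (shift of the Spp1 region -0.37, limma adjusted p = 0.0604) and among peaks above percentile 50 of each list (-0.82, limma adjusted p = 0.0548). With the replicate block the Spp1 shift kept its call (limma adjusted p = 0.0399) and the Gpnmb H3K27ac region had limma adjusted p = 0.0507. The correlations of deviations between same-numbered libraries ran from -0.0648 to 0.0862, so the numbers were not taken to pair libraries. The block raised the calls over all regions from 11 to 218 for H3K18la and from 25 to 581 for H3K27ac, and from 71 to 208 for H3K27me3.

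Among single shifts, maximum signal reversed H3K18la at the Spp1 promoter (0.131) and at chr6:49007142 (0.224), H3K4me3 at the Gpnmb promoter (-0.089), H3K27ac before (-0.613) and at (0.48) the Spp1 promoter, and the H3K27me3 domain (-0.532). Signal per called base reversed H3K18la before (-0.457) and at (0.82) the Spp1 promoter and at the Gpnmb window edge (-0.542), H3K27ac before (-0.153) and at (0.118) the Spp1 promoter, and H3K27me3 (-0.03). Leaving out each library, H3K18la ran from -0.939 to 0.073 at the Spp1 promoter (the latter without 4 dpi replicate 1), from -0.191 to 0.066 at chr6:49007142 and from -0.177 to 1.66 at the edge, and H3K27ac at the far edge of Gpnmb from -0.55 to 0.032. Counting only peaks with their maximum in the window, an alternative chosen after seeing the data, reversed none of the 10 values it gave.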
